A study of Homo sapiens with 10 samples.

Results

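The 10 glycolysis enzymes HK1, HK2, GPI, PFKL, PFKP, ALDOA, GAPDH, PGK1, PKM and LDHA were followed in 10 RNA-sequencing libraries of U2932, a human cell line from a diffuse large B cell lymphoma, which is a cancer of mature B cells. They were taken by symbol, through their Ensembl identifiers, from a table of 21174 gene identifiers, and all 10 were found and passed the filter on low counts. The libraries came from clones of the line, 5 labelled CREBBP+/+ (columns WT_1 to WT_5) and 5 labelled CREBBP+/- (columns Het_6 to Het_10). The CREBBP protein acetylates histones and works as a coactivator of transcription. The labels name no treatment. Not given in the sources used here is how the allele was altered or the clones were made. The labels do not say that the clones were grown as separate cultures, and p-values then cover only the spread among these samples, which may be technical.

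Glycolysis splits glucose into pyruvate. Hexokinases phosphorylate glucose, GPI and the phosphofructokinases turn it into fructose bisphosphate, aldolase cleaves that sugar, GAPDH and PGK1 carry out the first step that yields ATP, and PKM makes pyruvate, which lactate dehydrogenase can reduce to lactate. Several steps have isoenzymes from separate genes that differ in regulation and tissue use, among them HK1 and HK2 for hexokinase and PFKL, PFKM and PFKP for phosphofructokinase. Proliferating B cells and B cell lymphomas are known for high glucose uptake and lactate release.

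No enzyme differed between the genotypes past the threshold, whereas HK2, PFKL and LDHA varied widely between libraries of the same genotype. HK2 ran from 19.4 to 121 CPM (reads per 1000000 of the library total, scaled with TMM factors), a 6.20-fold range, LDHA from 884 to 2009 CPM, a 2.27-fold range, and PFKL from 61.1 to 132 CPM, a 2.16-fold range. The other 7 enzymes stayed within 1.42-fold (GPI) to 1.77-fold (PKM). A span of at least 1 on the log2 scale was reached by 3 of the 10 enzymes and by 37.9% of all 11961 genes tested, or 25.3% of those with at least 10 CPM on average.

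Between 10615977 (Het_9) and 23020694 (Het_6) reads were counted per library. CREBBP itself averaged 115 ± 13.5 CPM with CREBBP+/+ (SD, n = 5) against 69.6 ± 10.2 CPM with CREBBP+/- (SD, n = 5), with no overlap between the genotypes (log2 fold change -0.73, edgeR adjusted p = 0.395, DESeq2 adjusted p = 8.68e-05). The libraries fell into 3 clusters that cross the genotypes when grouped on genes outside the glycolysis lists. The first cluster held WT_1, WT_2 and Het_8, the second WT_3, WT_4, WT_5, Het_6 and Het_7, and the third only Het_9 and Het_10, so in the third cluster genotype and cluster cannot be told apart. All 8 B cell markers were detected. Of 19 markers of other cell types, 6 (CD3D, CD2, NKG7, FCGR3A, HBB and COL1A2) had no read in any library and 18 averaged under 1 CPM. Their sum, nearly all of it EPCAM, spanned 3.82 to 26.3 CPM for CREBBP+/+ and 16.2 to 27.9 CPM for CREBBP+/- libraries. It was lowest in the libraries of the first cluster, at 3.82 to 16.2 CPM. Its part in the results below was not tested.

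RefSeq promoter windows (GRCh38.p14, 250 bases before to 50 bases after the start of transcription) were matched for all 10 enzymes. Those of HK2, LDHA and PFKL are shown because these genes varied most, and that of PGK1 because it holds as many matches as LDHA while PGK1 varied little. Capitals mark matches, on either strand, to CACGTG (the E-box, bound by MYC and other helix-loop-helix factors) and to ACGTG or GCGTG (the core of the hypoxia response element). CACGTG contains ACGTG on both strands, so each E-box is also a match to the second motif, and overlapping matches were joined. All are printed 5′ to 3′ on the strand of the gene, which is the plus strand in each case.
HK2 promoter, chr2:74833877-74834176: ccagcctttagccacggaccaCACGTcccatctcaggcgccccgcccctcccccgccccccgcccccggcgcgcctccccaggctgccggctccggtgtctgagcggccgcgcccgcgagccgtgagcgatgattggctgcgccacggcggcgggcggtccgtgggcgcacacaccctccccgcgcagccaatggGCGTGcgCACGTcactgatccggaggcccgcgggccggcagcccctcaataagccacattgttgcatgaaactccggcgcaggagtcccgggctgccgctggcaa
PFKL promoter, chr21:44299803-44300102: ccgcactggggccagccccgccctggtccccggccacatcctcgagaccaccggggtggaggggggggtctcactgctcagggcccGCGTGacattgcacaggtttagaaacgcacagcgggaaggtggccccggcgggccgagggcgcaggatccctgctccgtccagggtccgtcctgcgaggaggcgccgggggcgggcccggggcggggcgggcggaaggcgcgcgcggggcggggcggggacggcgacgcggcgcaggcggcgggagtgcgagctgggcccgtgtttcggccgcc
PGK1 promoter, chrX:78103998-78104297: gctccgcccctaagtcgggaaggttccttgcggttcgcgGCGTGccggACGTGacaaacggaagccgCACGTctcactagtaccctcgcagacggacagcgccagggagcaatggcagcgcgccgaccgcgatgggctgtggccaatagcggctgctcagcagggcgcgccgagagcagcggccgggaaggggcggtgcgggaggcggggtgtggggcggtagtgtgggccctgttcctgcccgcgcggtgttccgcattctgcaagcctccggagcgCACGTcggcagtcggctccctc
LDHA promoter, chr11:18394313-18394612: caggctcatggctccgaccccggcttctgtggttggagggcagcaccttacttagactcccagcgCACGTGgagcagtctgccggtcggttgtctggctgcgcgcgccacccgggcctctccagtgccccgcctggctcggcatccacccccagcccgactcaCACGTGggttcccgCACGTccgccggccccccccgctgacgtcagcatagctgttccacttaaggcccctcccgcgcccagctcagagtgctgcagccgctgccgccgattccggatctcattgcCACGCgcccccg

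The HK2 window held 3 matches to the hypoxia core, at -229, -55 and -48 bases from the start, and no E-box. LDHA held 4 matches, of which those at -185 and -87 were E-boxes. PGK1 also held 4 matches, with no E-box, and PFKL had 1 at -164. Over the 10 enzymes, 2 windows (GAPDH and LDHA) held CACGTG and 9 (all but PFKP) held ACGTG or GCGTG. These counts belong to the 1 window used per enzyme, although HK1 had 7, PFKP 4, ALDOA 3, and HK2 and LDHA 2 each. The start used lay 747 bases from that of the canonical transcript for GAPDH, 422 for PFKP, 217 for HK1 and 204 for GPI. Of all 35116 promoter windows of this length, 7.26% held CACGTG and 48.4% held ACGTG or GCGTG. These letter matches are a description of the sequences and no binding was measured.

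Per transcript length, GAPDH and PKM had the highest levels and the hexokinases the lowest. Levels here are the CPM divided by the length of the canonical transcript in kilobases (RPKM, mean ± SD over the 10 libraries). GAPDH stood first at 3294 ± 422 RPKM, followed by PKM at 1414 ± 238, ALDOA at 631 ± 82.8 and LDHA at 571 ± 162. PGK1 (114 ± 14.3 RPKM), GPI (105 ± 11.3) and PFKP (64.1 ± 7.85) lay in the middle. PFKL (30.2 ± 7.95), HK1 (17.7 ± 2.81) and HK2 (12.2 ± 6.81) were the lowest. The ranges of ALDOA and LDHA overlapped, with ALDOA above LDHA in 7 of 10 libraries. PGK1 and GPI overlapped too, with PGK1 above GPI in 8 libraries. HK1 was above HK2 in 8 libraries, and PFKL was above HK1 in all 10 although their ranges overlapped. With the summed length of all annotated exons in place of the canonical transcript, HK2 moved to place 8, before PFKL and HK1, and the other 7 kept their places.

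The comparison of CREBBP+/- with CREBBP+/+ clones asked which transcripts change when a CREBBP allele is altered. None of the 10 enzymes passed the edgeR quasi-likelihood test with Benjamini-Hochberg adjustment over all genes tested (smallest adjusted p = 0.977), where 0% of all genes passed. None passed DESeq2 (smallest adjusted p = 0.635), where 0.268% of all genes did (32 of 11958). At an unadjusted p under 0.05, which 4.98% of all genes reached (596 of 11961), GAPDH was the only enzyme, on the lower side, where 2.6% of all genes lay. No enzyme was on the higher side, where 2.38% lay. Estimates were below 0 for 6 of the 10 enzymes and for 52.4% of all genes. The median log2 fold change was -0.03 for the 10 enzymes and -0.01 for all genes tested. In bulk RNA, fewer cells that express a gene and less of its RNA per cell cannot be told apart.

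**Figure D1:**
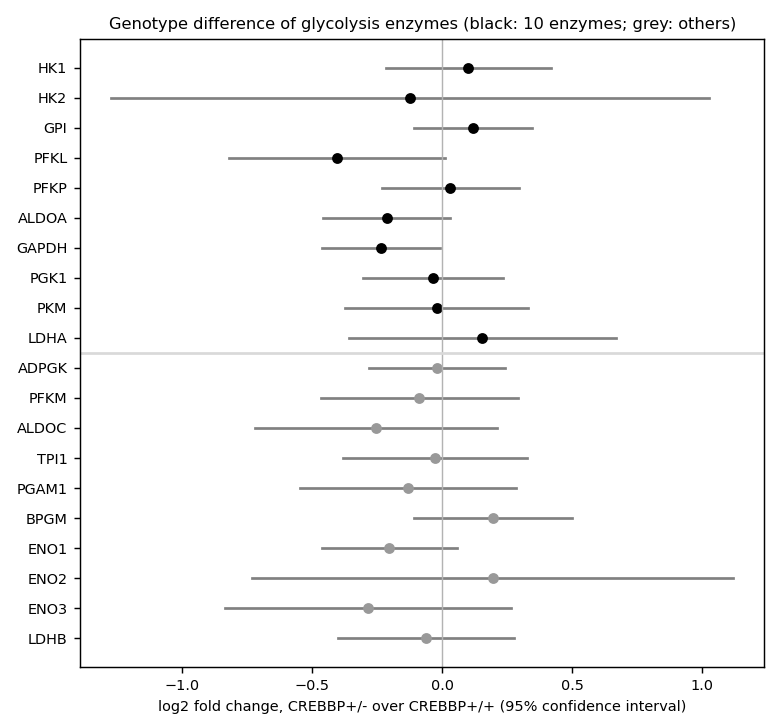
Log2 fold change of each glycolysis enzyme, CREBBP+/- over CREBBP+/+, on the horizontal axis, with bars for the 95% confidence interval of the edgeR fit (5 libraries per group). The interval of HK2, -1.27 to 1.03, is the widest of the 10 enzymes in black, and only that of GAPDH stays below 0.

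Hexokinase 1, the form found in most tissues, was HK1 (ENSG00000156515, chromosome 10, 69269984 to 69401884, GRCh38, plus strand). HK1 had 70.3, 59.2, 72.3, 54.9 and 51.1 CPM in WT_1 to WT_5 and 73.5, 77.6, 71.3, 53.4 and 54.1 CPM in Het_6 to Het_10. The groups overlapped, and the low values were those of WT_4, WT_5, Het_9 and Het_10, with WT_2 next. Its means were 61.6 ± 9.39 and 66.0 ± 11.4 CPM (mean ± SD, n = 5 each), a log2 fold change of 0.10 with an SE of 0.14 (edgeR adjusted p = 0.988). That fold change was 0.27 without Het_9 and Het_10.

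HK2 encodes the inducible hexokinase of insulin-sensitive and many tumour tissues (ENSG00000159399, chromosome 2, 74834127 to 74893359, plus strand). HK2 had 119, 121, 72.4, 27.0 and 19.4 CPM in WT_1 to WT_5 and 61.5, 89.4, 105, 35.3 and 38.2 CPM in Het_6 to Het_10. Both the highest and the lowest libraries were CREBBP+/+, so the 5 CREBBP+/- values lay inside the CREBBP+/+ range. The means were 71.7 ± 48.4 and 65.8 ± 30.7 CPM. The log2 fold change of -0.12 had an SE of 0.52 (95% confidence interval -1.27 to 1.03, edgeR adjusted p = 0.988). Its sign turned without WT_1 (0.14), WT_2 (0.15), Het_9 (0.034) or Het_10 (0.023).

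GPI, glucose-6-phosphate isomerase, makes fructose 6-phosphate (ENSG00000105220, chromosome 19, 34359480 to 34402413, plus strand). GPI had 437, 453, 433, 361 and 399 CPM in WT_1 to WT_5 and 421, 453, 384, 492 and 513 CPM in Het_6 to Het_10. Het_9 and Het_10 were the highest of all, and the groups overlapped. The log2 fold change was 0.12 (SE 0.10, edgeR adjusted p = 0.988), and 0.012 without Het_9 and Het_10. On its strand GPI overlaps ENSG00000266953, which averaged 81.1 CPM, and reads in the shared stretch could count for either.

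PFKL, the liver-type subunit of phosphofructokinase, which commits sugar to glycolysis, had the largest estimate of the 10 (ENSG00000141959, chromosome 21, 44300051 to 44327376, plus strand). PFKL had 86.8, 64.0, 103, 132 and 115 CPM in WT_1 to WT_5 and 90.01, 79.7, 82.2, 61.1 and 64.9 CPM in Het_6 to Het_10. WT_3, WT_4 and WT_5 were above all CREBBP+/- libraries, while WT_2 was among the lowest. The means were 100.07 ± 26.1 and 75.6 ± 12.2 CPM, 1.32-fold lower in CREBBP+/- (log2 fold change -0.40, SE 0.19, 95% confidence interval -0.82 to 0.01, edgeR adjusted p = 0.977). Without Het_9 and Het_10 it was -0.25.

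PFKP, the platelet-type subunit, is the phosphofructokinase with the highest level per length in each library here (ENSG00000067057, chromosome 10, 3066333 to 3137718, plus strand). PFKP had 196, 172, 185, 147 and 133 CPM in WT_1 to WT_5 and 169.8, 183, 189.7, 154 and 154 CPM in Het_6 to Het_10. The CREBBP+/- values lay within the CREBBP+/+ range, with WT_4 and WT_5 the lowest. The log2 fold change was 0.03 (SE 0.12, edgeR adjusted p = 0.988), with its sign turned without WT_4 (-0.011), WT_5 (-0.039) or Het_8 (-0.011).

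ALDOA, aldolase A, cleaves fructose bisphosphate into a pair of triose phosphates (ENSG00000149925, chromosome 16, 30064164 to 30070457, plus strand). ALDOA had 1231, 1221, 1011, 942 and 1149.8 CPM in WT_1 to WT_5 and 884, 943, 848, 1019.8 and 1099 CPM in Het_6 to Het_10. Het_6 and Het_8 were below all CREBBP+/+ libraries, WT_4 was just under Het_7, and the groups overlapped. The means were 1111 ± 129 and 959 ± 102 CPM, 1.16-fold lower (log2 fold change -0.21, SE 0.11, edgeR adjusted p = 0.984).

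GAPDH oxidises glyceraldehyde 3-phosphate and is often used as a reference gene (ENSG00000111640, chromosome 12, 6534512 to 6538374, plus strand). GAPDH had 4212, 5484, 4686, 4313 and 4193 CPM in WT_1 to WT_5 and 3794, 4179.8, 3581, 3738 and 4151 CPM in Het_6 to Het_10. It was the only enzyme whose groups did not overlap, by a margin of 4193 in WT_5 over 4179.8 in Het_7. All genes tested separated in this way in 1.02% of cases, lower in CREBBP+/- in 0.594% and higher in 0.426%. The means were 4578 ± 544 and 3889 ± 264 CPM, 1.18-fold lower (log2 fold change -0.24, SE 0.10, 95% confidence interval -0.46 to -0.0071, unadjusted p = 0.0444, edgeR adjusted p = 0.977).

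PGK1, phosphoglycerate kinase 1, forms the first ATP of the pathway (ENSG00000102144, chromosome X, 77910739 to 78129295, plus strand). PGK1 had 515, 558, 633, 522 and 543 CPM in WT_1 to WT_5 and 612, 660.4, 451, 509 and 470.5 CPM in Het_6 to Het_10. The CREBBP+/- libraries were both the highest (Het_7) and the lowest (Het_8, Het_10 and Het_9). The log2 fold change was -0.04 (SE 0.12, edgeR adjusted p = 0.988), and it was above 0 without WT_3 (0.016), Het_8 (0.022) or Het_10 (0.013). The annotated span of PGK1 overlaps that of ATP7A on the same strand, which averaged 13.7 CPM.

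PKM, pyruvate kinase of muscle and of proliferating cells, makes pyruvate (ENSG00000067225, chromosome 15, 72199029 to 72231819, minus strand). PKM had 2600.2, 2722, 3478, 3321 and 4290.1 CPM in WT_1 to WT_5 and 3422, 3582, 2424, 3318 and 3434 CPM in Het_6 to Het_10. WT_1, WT_2 and Het_8 were the 3 lowest libraries and WT_5 the highest. The log2 fold change was -0.02 (SE 0.16, edgeR adjusted p = 0.995), and it was above 0 without WT_3 (0.0011), WT_5 (0.094) or Het_8 (0.067). Counts are per gene, so the PKM1 and PKM2 splice forms were not analysed here.

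LDHA, the lactate dehydrogenase subunit that favours lactate formation, varied next to HK2 (ENSG00000134333, chromosome 11, 18394560 to 18408425, plus strand). LDHA had 933, 1092, 1645, 1189 and 1198 CPM in WT_1 to WT_5 and 1638, 2009, 884, 1152 and 1061 CPM in Het_6 to Het_10. WT_3, Het_6 and Het_7 stood above all others and WT_1 and Het_8 were the lowest, with both genotypes at either end. The log2 fold change was 0.15 (SE 0.23, edgeR adjusted p = 0.988), and -0.034 without Het_7. GAPDH, PGK1, PKM, LDHA and ALDOA have processed pseudogenes of near-identical sequence, and their levels are uncertain to the extent that reads fitting several places were counted, a setting not given in the sources used here.

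**Figure D2:**
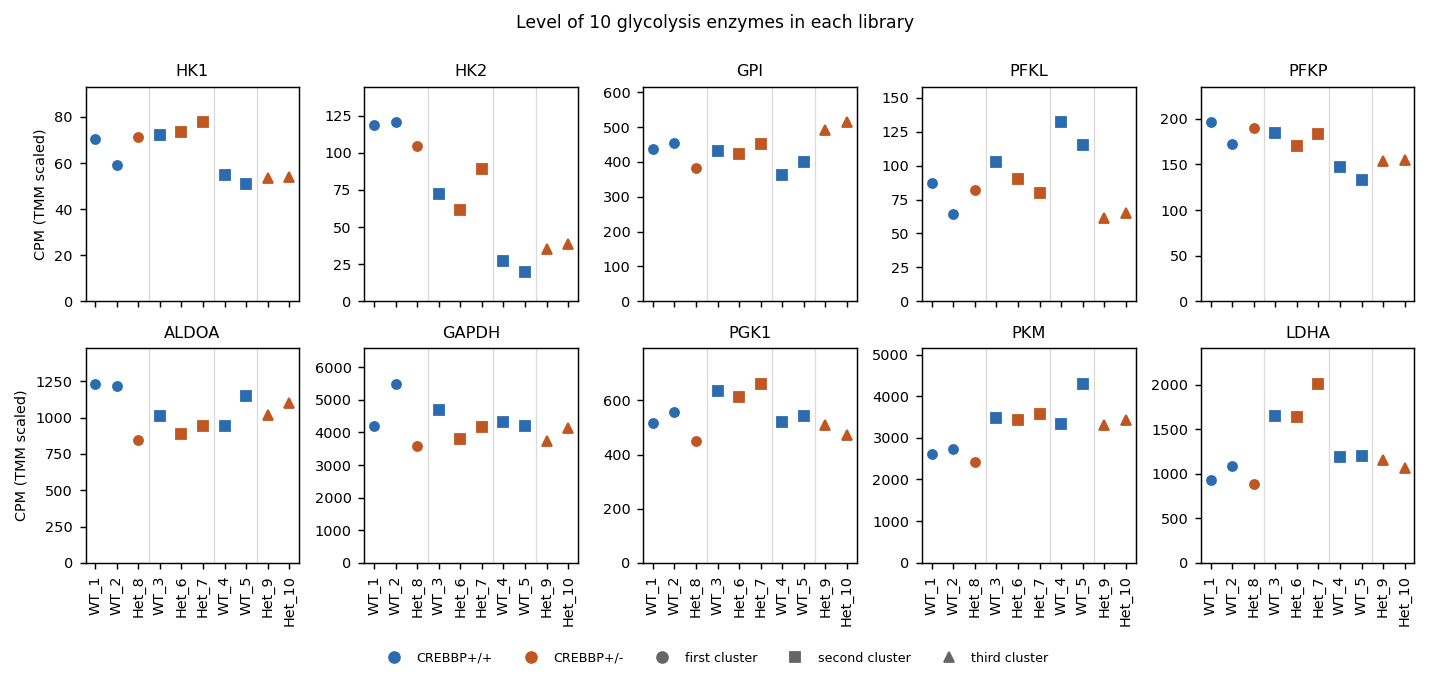
CPM of each enzyme (vertical axes, starting at 0) in the 10 libraries, ordered by cluster, with genotype by colour and cluster by marker shape. HK2 falls from 105 to 121 CPM in the first cluster to 19.4 and 27.0 CPM in WT_5 and WT_4, while both genotypes lie close together for WT_3, Het_6 and Het_7.

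The balance of isoenzymes was compared within each library, since a ratio of a pair of genes does not depend on library scaling. Of the 4 ratios tested, none passed an adjusted p under 0.05 between the genotypes (exact two-sided permutation over all assignments of the libraries, n = 5 each, smallest possible p = 0.00794). For HK2 over HK1 the mean log2 read ratio was -0.13 ± 1.07 in CREBBP+/+ and -0.12 ± 0.49 in CREBBP+/- libraries (difference 0.0055, exact permutation p = 1, adjusted p = 1). For PFKP over PFKL it was 0.76 ± 0.57 and 1.18 ± 0.16, a difference of 0.42 (exact permutation p = 0.198, adjusted p = 0.794). The CREBBP+/+ spread of that ratio came from WT_4 and WT_5, with read ratios of 1.11 and 1.16, while the other 8 libraries had 1.80 to 2.69. The difference was 0.65 within the second cluster and -0.10 within the first. ALDOC over ALDOA differed by -0.10 (exact permutation p = 0.714, adjusted p = 0.952) and LDHB over LDHA by -0.15 (exact permutation p = 0.659, adjusted p = 0.952).

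HK2 went from the minor to the major hexokinase transcript across the libraries. Per length, HK2 made up 52.0, 56.6, 39.1, 24.0 and 19.6% of hexokinase 1 and 2 in WT_1 to WT_5 and 34.9, 42.4, 48.4, 29.7 and 31.1% in Het_6 to Het_10. It was above HK1 only in WT_1 and WT_2. With summed exon length these shares were between 30.7% (WT_5) and 70.3% (WT_2), and HK2 was then the larger in 5 libraries, so which form leads depends on the length used. As a plain share of reads, HK2 had 27.6% in WT_5 (95% Wilson interval 25.3 to 30.0) and 67.1% in WT_2 (65.4 to 68.6), intervals that cover counting error only. HK3, another hexokinase gene, had 0 to 3 reads per library.

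Among phosphofructokinases, PFKP was the largest in every library at 44.1 to 55.5% per length. The share of PFKL was 36.6% in WT_4 and 34.4% in WT_5, and 16.8 to 25.5% in the other 8 libraries. As a plain share of reads PFKL ran from 17.3% in WT_2 (95% Wilson interval 16.4 to 18.2) to 37.8% in WT_4 (36.6 to 39.0). PFKM, the muscle type, held 18.4 to 33.2% per length, highest in WT_2.

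LDHB, the subunit that favours the oxidation of lactate, exceeded LDHA in reads only in the first cluster. The read ratio LDHB over LDHA was 1.28 in WT_1, 1.43 in WT_2 and 1.37 in Het_8. It was 0.560 to 0.784 in the second cluster and 0.888 to 0.907 in the third, so the 3 clusters did not overlap. Per length, LDHB made up 68.7 to 71.0% in the first cluster, 49.1 to 57.4% in the second and 60.4 to 60.9% in the third. LDHB was thus above LDHA per length in 9 of 10 libraries, and in all 10 with summed exon length. Which subunit leads outside the first cluster therefore depends on whether length is taken into account.

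**Figure D3:**
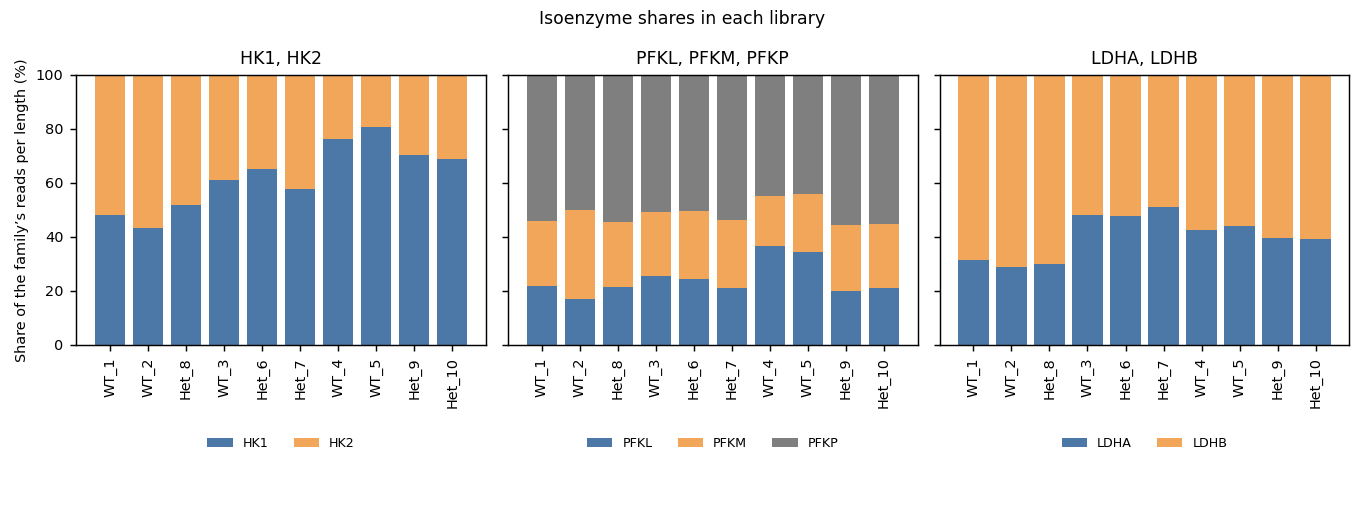
Share of reads per canonical transcript length (vertical axis, percent, 0 to 100) of each isoenzyme of hexokinase, phosphofructokinase and lactate dehydrogenase in the 10 libraries. HK2 reaches 56.6% in WT_2 and 19.6% in WT_5, PFKL is largest in WT_4 and WT_5, and LDHB is largest in WT_1, WT_2 and Het_8.

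Library clusters were drawn from the data, so the values by cluster are a description with no test. Between the first and second clusters, HK2 was higher without overlap (mean 115 against 54.0 CPM, log2 difference 1.31), and PKM (2582 against 3619 CPM, -0.48) and LDHA (969.7 against 1536 CPM, -0.64) were lower without overlap. That is 3 of 10 enzymes, where 45.8% of all genes did not overlap, 21.9% higher and 23.9% lower in the first cluster. The other 7 enzymes differed by -0.41 (PFKL) to 0.20 (PFKP) and overlapped. HK2 and LDHA therefore differed in opposite directions between these clusters. The B cell markers differed between them too, with a summed level of 1967 to 2313 CPM in the first cluster and 3111 to 3546 CPM in the second. Of the 8 markers, 6 were lower in the first cluster without overlap (median log2 difference -0.72), and their part in the enzyme values was not tested.

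Het_9 and Het_10 had more GPI than each library of the second cluster (503 against 413 CPM, log2 difference 0.29). They had less PFKL (63.0 against 104 CPM, -0.70), PGK1 (489.7 against 594 CPM, -0.27) and LDHA (1106 against 1536 CPM, -0.44). These 4 of 10 compare with 40.2% of all genes, 19.3% higher and 20.9% lower in the third cluster. Against the first cluster, GPI and PKM were higher and HK1, HK2 and PFKP lower without overlap, 5 of 10 enzymes, where 60% of all genes separated, 31% higher and 28.9% lower. HK2 showed the largest of these differences, at 36.8 against 115 CPM (log2 difference -1.64).

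Inside the second cluster the libraries were uneven, and 7 of the 10 enzymes separated along a split that only partly crosses the genotypes. WT_3 lay with Het_6 and Het_7, apart from WT_4 and WT_5, on the genes used for clustering. Both CREBBP+/- libraries of this cluster were thus on the same side, and only WT_3 parts the split from genotype. HK2 was 61.5 to 89.4 CPM in WT_3, Het_6 and Het_7 and 19.4 and 27.0 CPM in WT_5 and WT_4, a 3.20-fold ratio of geometric means. HK1 (1.41-fold), LDHA (1.47-fold), PFKP (1.28-fold), PGK1 (1.19-fold) and GPI (1.15-fold) were also higher without overlap, and PFKL was lower (log2 difference -0.45). Thus 6 of 10 were higher and 1 was lower, where 45.2% of all genes did not overlap, 23% higher and 22.2% lower. The median log2 difference was 0.23 for the 10 enzymes and -0.0019 for all genes.

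Genotype was therefore also set side by side within clusters. In the first cluster, the single CREBBP+/- library Het_8 differed from the mean of WT_1 and WT_2 by -0.53 for ALDOA and -0.42 for GAPDH on the log2 scale, and by -0.25 to 0.14 for the other 8. In the second cluster, Het_6 and Het_7 exceeded WT_3 to WT_5 by 1.14 for HK2, 0.45 for LDHA and 0.36 for HK1. Against WT_3 alone those differences were 0.03, 0.14 and 0.06. Mean levels of GAPDH, ALDOA and PKM were lower in the CREBBP+/- libraries of both clusters, by -0.14, -0.17 and -0.07 in the second. PKM differed by -0.13 in the first. In the second cluster, ALDOA and PKM values of the genotypes overlapped. The share of all genes with the same direction in both clusters was not computed. PFKL differed by -0.45 in the second cluster, by -0.28 against WT_3 alone and by 0.14 in the first.

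Some enzyme genes lie in stretches whose other genes also differed between clusters. The 33 tested genes within 5 Mb of LDHA had a median log2 difference of -0.73 between the first and second clusters, and LDHA itself had -0.64. Around GPI the 118 neighbours had a median of 0.61 and around HK1 the 60 neighbours had 0.49, while GPI and HK1 both had 0.04. HK2 stood at 1.31 where its 58 neighbours had -0.06, and PKM at -0.48 where its 67 neighbours had 0.01. PFKL stood at -0.41 and its neighbours at -0.08. Between the third and second clusters, GPI had 0.29 and its neighbours 0.27, PFKL -0.70 and its 45 neighbours -0.24, and LDHA -0.44 and its neighbours -0.01. For LDHA between the first and second clusters, and for GPI between the third and second, the gene thus lay near its neighbours, and for HK2 and PKM it did not. Gene copy number was not measured in these libraries, and its part was not tested.

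**Figure D4:**
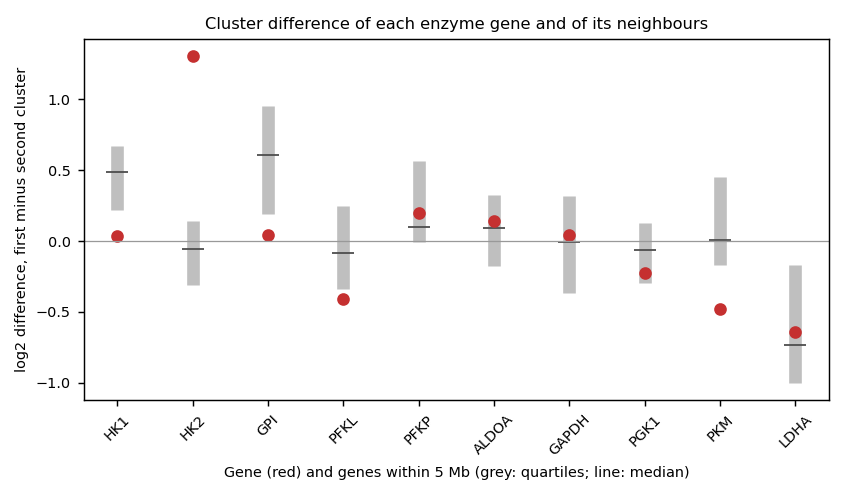
Log2 difference between the first and second clusters (vertical axis) of each enzyme gene (red point) and of the tested genes within 5 Mb (grey bar for the quartiles, line for the median). The LDHA point lies within the bar of its neighbours, those of HK1, GPI, PFKL and PKM lie below theirs, and that of HK2 lies at 1.31, far above.

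For the 3 enzymes that varied most, the genes with the closest pattern over the 10 libraries were found among 8959 genes of at least 10 CPM. The measure was the root-mean-square difference of centred log2 CPM divided by the SD of the enzyme, which is 0 for an identical pattern. For HK2 the closest were RNF125 (0.35), RCN1 (0.38) and VEGFA (0.38), where the median gene had 0.98. For PFKL they were YPEL3 (0.33), MYO18A (0.34) and SHARPIN (0.34), median 1.12. For LDHA they were CBR1 (0.29), NEK7 (0.33) and SEC61G (0.36), median 1.11. VEGFA, the vascular growth factor, had 22.5, 21.5, 23.1, 11.7 and 4.06 CPM in WT_1 to WT_5 and 16.2, 23.6, 28.3, 10.8 and 9.04 CPM in Het_6 to Het_10, low in the same 4 libraries as HK2. All points share the same libraries and clusters.

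Of 21 other glycolysis enzymes listed, 10 passed the filter and none passed the edgeR test between genotypes, with 2 estimates above and 8 below 0 and a median log2 fold change of -0.08. Over all genes tested, 0% passed and 52.4% of estimates were below 0. TPI1, which interconverts the triose phosphates, had 756 ± 115 and 742 ± 150.1 CPM (log2 fold change -0.03). PGAM1, phosphoglycerate mutase, had -0.13, ENO1, the main enolase, -0.20, PFKM -0.09, ALDOC -0.25 and LDHB -0.06. PKLR, the liver and red cell pyruvate kinase, had 0 to 2 reads per library. ENO2, the neuronal enolase, had 14.5, 23.2, 64.8, 77.1 and 57.4 CPM in WT_1 to WT_5 and 58.3, 59.3, 29.6, 55.0 and 69.0 CPM in Het_6 to Het_10. It was low in the first cluster (log2 difference -1.54 against the second), opposite to ENO1 (0.34) and PGAM1 (0.42).

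Of 11 genes of glucose and lactate transport, 9 were tested and none passed between genotypes (0% of all genes did). Of their estimates, 6 were above and 3 below 0 (median 0.07), where 52.4% of all genes were below 0. SLC2A1, the glucose transporter GLUT1, had 77.3, 79.2, 49.3, 53.8 and 48.4 CPM in WT_1 to WT_5 and 43.9, 45.5, 82.8, 68.1 and 73.7 CPM in Het_6 to Het_10. It was higher without overlap in the first cluster (log2 difference 0.73) and in the third (0.56) than in the second. SLC16A1, the lactate carrier MCT1, followed the same order (0.69 and 0.53). SLC2A3, the transporter GLUT3, had 1.25 to 4.86 CPM in the first cluster, 6.80 and 7.53 CPM in Het_10 and Het_9, and at most 1.44 CPM in the second. SLC16A3, the lactate exporter MCT4, had 6.61 ± 3.20 and 6.98 ± 2.08 CPM (log2 fold change 0.08). It was lower without overlap in the first cluster than in the second (3.91 against 8.24 CPM, log2 difference -1.02). Of the 9 tested transport genes, 2 were higher and 2 lower in the first cluster without overlap (21.9% and 23.9% of all genes). In the third, 4 were higher and 0 lower than in the second (19.3% and 20.9%).

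Genes of the response to low oxygen, which in other settings include several glycolysis enzymes, gave 15 tested of 18 listed. None passed between genotypes (0% of all genes did), with 9 estimates above and 6 below 0 and a median of 0.02. Of all genes, 52.4% had estimates below 0. ARNT (-0.18), HIF1A (0.18) and BNIP3L (0.24) had the smallest p-values of this list. CA9 and EGLN3 had no read in any library. Within the second cluster, 9 of the 15 were higher and 1 lower in WT_3, Het_6 and Het_7 than in WT_4 and WT_5 without overlap. Of all genes, 23% were higher and 22.2% lower, and the median log2 difference was 0.51 for the list. Other lists were mixed along that split. Of 13 tested genes of pyruvate fate, 8 were higher and 2 lower. For the pentose phosphate pathway it was 1 higher and 1 lower of 7, and for glucose and lactate transport 1 and 2 of 9. Genes that set fructose bisphosphate levels had 2 higher and 0 lower of 5, and B cell markers 1 higher and 3 lower of 8. Of the 10 other tested glycolysis enzymes, 5 were higher and 1 lower. In the first cluster, 2 of the 15 low-oxygen genes were higher and 5 lower than in the second (21.9% and 23.9% of all genes). In the third, 1 was higher and 3 lower (19.3% and 20.9%). HIF1A, which encodes the oxygen-regulated factor, had 172, 163 and 160.0 CPM in WT_3, Het_6 and Het_7 and 88.8 to 129 CPM in the other 7 libraries. The same 3 libraries had the highest LDHA and PGK1, while HK2 was higher still in the first cluster, where HIF1A was lowest at 88.8 to 101 CPM. These are RNA levels, and a part of HIF1A in the enzyme values was not tested.

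**Figure D5:**
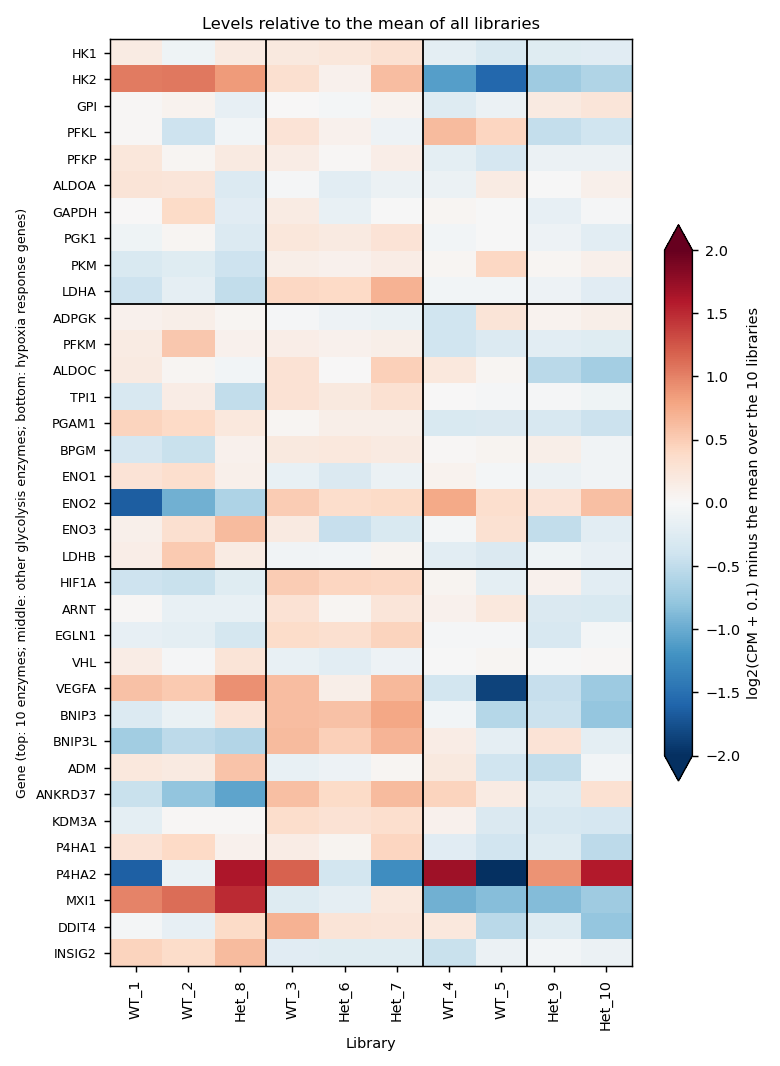
Log2(CPM + 0.1) of each gene minus its mean over the 10 libraries (colour, with values beyond 2 in the end colours), for the 10 enzymes at the top, other tested glycolysis enzymes in the middle and genes of the response to low oxygen at the bottom. Columns are libraries by cluster. HK2 and MXI1 are high in the first cluster, and LDHA, HIF1A and BNIP3L in WT_3, Het_6 and Het_7.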

How the data were processed

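U2932 clones gave 10 RNA-sequencing libraries, for which the authors deposited unnormalised counts by Ensembl identifier, 1 library to a column. Per the submitters' processing notes, the tools were STAR, featureCounts, FastQC and DESeq2 and the build was GRCh38. Their roles and versions, the annotation, strand use and the treatment of reads that fit several places remain not given in the sources used here. In the deposited table, values from 10000 upward keep only 4 significant digits. The CREBBP+/- columns (Het_6 to Het_10) carry numbers that no labelled sample has, so they were used by group only. Symbols came from GENCODE for 20804 of 21174 identifiers (98.3%).

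Computed here: TMM-scaled CPM, and log2 CPM with a prior count of 2; edgeR 4.0.16 in R 4.3.3 (quasi-likelihood F-test, robust, filterByExpr with minimum count 10 and minimum total 15, 11961 genes left, Benjamini-Hochberg adjusted p under 0.05, no covariate); exact two-sided permutation for 4 isoenzyme ratios, adjusted over the 4; and 3 clusters by average linkage of log2 CPM without 90 list genes. The edgeR step was tested on simulated data. Alternatives were DESeq2 1.42.0, limma-voom (limma 3.58.1), other scalings and filters, left-out libraries and clusters as a covariate. The DESeq2 fits with clusters or without libraries, the cluster scalings and the exon-union length were added after the data were seen.

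The enzymes, gene lists and tests were chosen with earlier results of these data known. Named genes are the 10 enzymes, 9 other glycolysis enzymes and 4 transporters written out by symbol, up to 3 tested genes of smallest unadjusted p per other list, and the 3 closest patterns of enzymes that span at least 1 log2. VEGFA, as a gene described by its values, PFKFB3 and MXI1 were chosen after their values were seen. Some single-gene results are not reported here. With total counts of 10615977 to 23020694, an enzyme had at least 373 reads in each library.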

Additional observations from a re-analysis of the deposited data

Results flagged for a closer look

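PKM in Het_8 stood apart from the other 4 CREBBP+/- libraries, at a log2 CPM of 11.24 where the next was 11.70 and the highest 11.81. It was the only outlying library among the 28 groups of values checked, and chance flags about 1 in 20 such groups. Het_8 shared this low PKM level with WT_1 and WT_2, the other libraries of the first cluster. Without Het_8 the log2 fold change of PKM was 0.067.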

How the results depend on the processing

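None of the 10 enzymes was called under any alternative run, and the estimates of HK1, GPI, PFKL, ALDOA and GAPDH kept their direction wherever a fold change was computed, which leaves out the DESeq2 fits without 1 library. In the same fits the smallest adjusted p of an enzyme was 0.0797, for ALDOA in DESeq2 with clusters as a covariate. Over all genes, edgeR called 0 (0 to 1 leaving out 1 library, the 1 without Het_6), DESeq2 32, DESeq2 with clusters 192 and DESeq2 without Het_9 and Het_10 13. Leaving out 1 library, DESeq2 called 13 to 105, with 104 without WT_3 and 105 without Het_8, and 15, 17, 13 and 16 without WT_1, WT_4, Het_9 and Het_10. Of the other lists, FBP1 alone was called, 1 gene in DESeq2 with clusters (log2 fold change -0.64, adjusted p = 0.0427).

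HK2 turned to 0.13 in limma-voom, 0.25 without Het_9 and Het_10 (0.25 in DESeq2) and 0.54 with clusters as a covariate (0.56 in DESeq2). PGK1 turned to 0.055 without Het_9 and Het_10 (0.057 in DESeq2) and 0.023 with clusters (0.029 in DESeq2). PKM was 0.0054 with upper-quartile factors, and ALDOC over ALDOA 0.30 without Het_9 and Het_10. Leaving out 1 library gave -0.36 to 0.15 for HK2, -0.039 to 0.096 for PFKP, -0.12 to 0.022 for PGK1, -0.094 to 0.094 for PKM and -0.034 to 0.29 for LDHA. The same gave 0.036 to 0.17 for HK1, 0.072 to 0.17 for GPI, -0.53 to -0.29 for PFKL, -0.27 to -0.17 for ALDOA and -0.27 to -0.16 for GAPDH. Without Het_9 and Het_10, HK1 went from 0.10 to 0.27, GPI from 0.12 to 0.012 and PFKL from -0.40 to -0.25, and with clusters as a covariate they were 0.27, 0.014 and -0.24. The ratios ranged from -0.31 to 0.29 (HK2 over HK1), 0.27 to 0.58 (PFKP over PFKL), -0.27 to 0.080 (ALDOC over ALDOA) and -0.33 to 0.0074 (LDHB over LDHA). HK2 over HK1 was below 0 without WT_4, WT_5, Het_7 or Het_8, ALDOC over ALDOA above 0 without Het_9 or Het_10, and LDHB over LDHA above 0 without WT_2. The cause of these turns was not tested. Other scalings turned no difference between clusters. No paired analysis was possible because the CREBBP+/- columns carry numbers that no title has. Depth did not limit the enzymes, whereas HK3 and PKLR were too low to compare.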

Other observations

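Genes next to glycolysis were also followed. As background for the lists below, edgeR called 0% of all genes tested between genotypes, and 52.4% of all estimates were below 0. In the pentose phosphate pathway, which branches off at glucose 6-phosphate, all 7 listed genes were tested and none passed edgeR between genotypes, with 1 estimate above and 6 below 0 (median log2 fold change -0.13). PGD, the second dehydrogenase of that pathway, had -0.27 (SE 0.14), RPIA -0.19 and TALDO1 -0.18. Of 16 genes that decide the fate of pyruvate, 13 were tested and none passed, with 9 estimates above and 4 below 0 (median 0.06). MPC1, a subunit of the mitochondrial pyruvate carrier, had -0.37 (SE 0.23), DLAT 0.20 and PDHX 0.16, both parts of the pyruvate dehydrogenase complex. In the first cluster 8 of these 13 genes were lower and 1 was higher than in the second, without overlap, where 23.9% of all genes were lower and 21.9% higher.

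Of 7 genes that set fructose bisphosphate levels, 5 were tested and none passed between genotypes (median 0.0045). PFKFB4 had 0.48, FBP1 -0.32 and TIGAR -0.02. PFKFB3, which makes the activator of phosphofructokinase, had 43.7, 45.6, 171, 93.0 and 76.0 CPM in WT_1 to WT_5 and 133, 116, 58.1, 64.9 and 57.6 CPM in Het_6 to Het_10. It was highest in WT_3, Het_6 and Het_7, the libraries with the most LDHA. FBP1, the gluconeogenic phosphatase, was lower in the first cluster than in the second without overlap (log2 difference -1.61).

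Of the 8 B cell markers, none passed the edgeR test, with 5 estimates above and 3 below 0. CD22, a B cell surface lectin, had a log2 fold change of 0.33, and EBF1, a B cell transcription factor, 0.38. The markers of other cell types tested were EPCAM (0.58), PECAM1 (0.49) and CD14 (0.14), and none passed.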
